A study of Mus musculus with 6 samples.

Results

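A set of 10 genes is described here, which report on the unfolded protein response and on amino acid stress: HSPA5 (ENSG00000044574), DDIT3 (ENSG00000175197), ATF4 (ENSG00000128272), XBP1 (ENSG00000100219), ASNS (ENSG00000070669), TRIB3 (ENSG00000101255), CHAC1 (ENSG00000128965), HERPUD1 (ENSG00000051108), DNAJB9 (ENSG00000128590) and SESN2 (ENSG00000130766). They were picked for their known roles and matched by Ensembl identifier. No value in these tumors was part of the rule, but earlier results of these data were known when the genes were chosen. All 10 of 10 were found among the 60649 genes of the count table, and all 10 were among the 24545 genes tested.

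LAPC-4, a hormone-sensitive human prostate cancer line with wild-type androgen receptor, was grown as flank xenografts in male SCID mice, a strain without functional lymphocytes of the B and T lineages. HiGI tumors (n = 3, numbered 16, 20 and 26) came from mice fed a high glycemic index Western diet with sucrose as its main carbohydrate. LoGI tumors (n = 3, numbered 19, 27 and 28) came from mice fed a low glycemic index Western diet built on the high-amylose starch Hylon-VII, with maltodextrin. Both groups had eaten the HiGI diet until randomization, at a tumor volume of 200 mm3 on average. Both were single-housed afterwards and fed ad libitum. Each mouse was sacrificed after a short fast when its tumor reached a set volume, so time on the diet was not fixed. The sample records give no age for the mice, which the study states only as a range at purchase, and the model is 1 cell line. The question was whether carbohydrate quality alone alters the tumor.

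When unfolded proteins accumulate in the endoplasmic reticulum (ER), the sensors IRE1, PERK and ATF6 raise the folding and disposal capacity of that compartment. IRE1 splices XBP1 mRNA into the form that encodes an active transcription factor. PERK, like the amino acid sensor GCN2, phosphorylates the translation factor eIF2α, which slows protein synthesis overall while ATF4 protein is made more efficiently. ATF4 in turn switches on genes for amino acid supply and, with DDIT3, genes such as TRIB3 and CHAC1. Counts of mRNA do not measure XBP1 splicing, ATF4 translation or eIF2α phosphorylation. Secretory cells of the prostate pass a heavy load of proteins through the ER.

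Library totals lay between 18749813 and 21550812 reads, and every tumor had reads on all 10 genes. The 10 genes together held 0.258% to 0.273% of the reads of HiGI tumors and 0.272% to 0.282% of those of LoGI tumors. Reads per gene ran from 16 to 33 for SESN2, the least read of the 10, and from 22920 to 25736 for HSPA5. Values below are reads after TMM normalization, which scales each library to a common size (normalized counts), unless stated as reads. Log2 fold changes are LoGI over HiGI. Reads are listed in the order of tumors 16, 20 and 26 for HiGI and 19, 27 and 28 for LoGI. In whole tumors, fewer cells of a type and less RNA per cell cannot be told apart. The markers of LAPC-4 cells and of other cell types were not checked here.

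In normalized counts, all LoGI tumors lay above all HiGI tumors for XBP1, DNAJB9, ATF4 and DDIT3, and below them for TRIB3 and SESN2. None of these differences passed the edgeR test across all genes. In edgeR (quasi-likelihood F-test, p adjusted by Benjamini-Hochberg over all 24545 genes), 0 of the 10 reached an adjusted p under 0.05. Across all genes, 0.363% were called higher and 4.36% lower in LoGI tumors by that rule. At an unadjusted p under 0.05 in edgeR, 3 of the 10 genes were higher in LoGI tumors (ATF4, XBP1 and DNAJB9) and 1 was lower (TRIB3), where 4.32% of all genes were higher and 8.98% lower. The edgeR exact test called 0 of the 10, against 5.72% of all genes in either direction, and the DESeq2 Wald test called 1, XBP1, as higher, against 0.542% of all genes. By sign, 7 genes were higher and 3 lower in LoGI tumors. Their median log2 fold change was 0.15, against 0.00318 over all genes tested, and the largest in size was 0.38, for ASNS. Over all genes the median rose with the number of reads, from -0.0367 at a mean of 10 to 100 reads to 0.106 above 10000. Normalized counts of the 2 diets did not overlap for 6 of the 10 genes. Of these, 4 were higher in LoGI tumors (DDIT3, ATF4, XBP1 and DNAJB9), where 7.59% of all genes were, and 2 were lower (TRIB3 and SESN2), where 10.9% of all genes were.

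**Figure D1:**
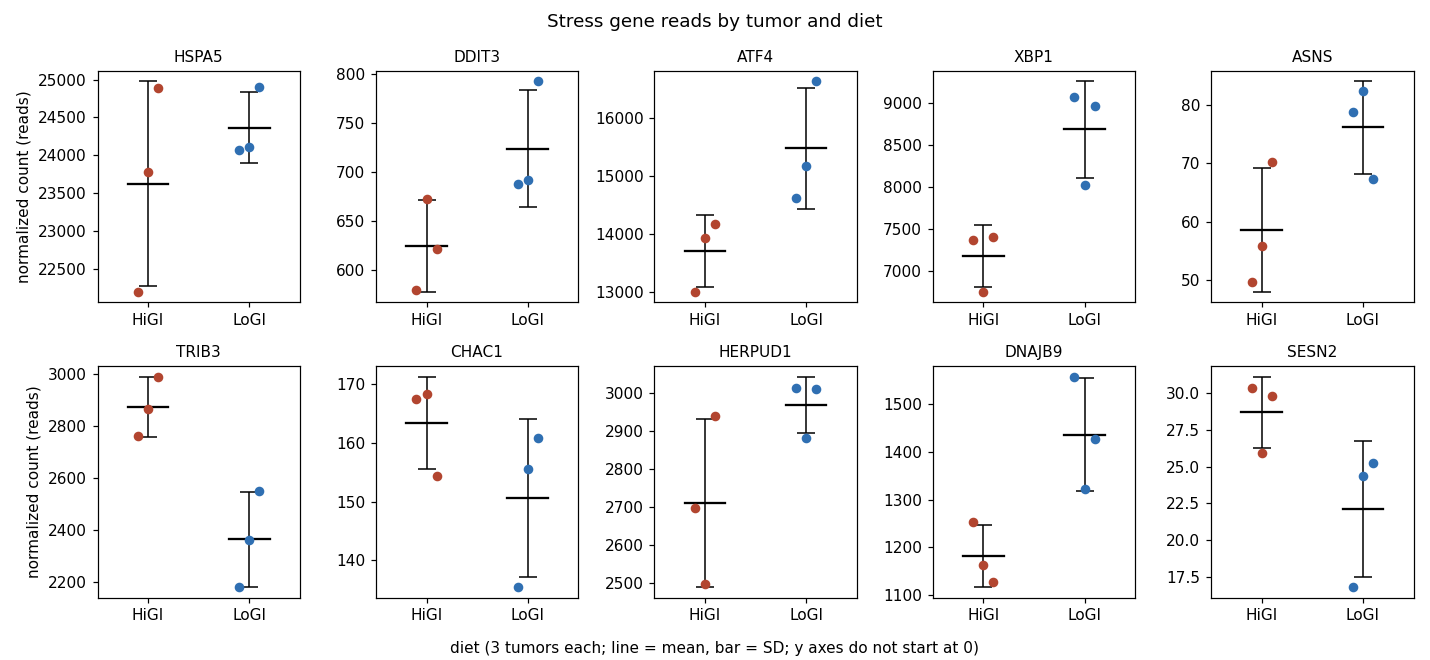
Normalized counts (reads, y axes not starting at 0) of each of the 10 genes in the 3 HiGI (red) and 3 LoGI (blue) tumors, with the mean as a line and the SD as a bar. All 3 LoGI tumors lie above all 3 HiGI tumors for DDIT3, ATF4, XBP1 and DNAJB9 and below them for TRIB3 and SESN2, while the diets overlap for HSPA5, ASNS, CHAC1 and HERPUD1.

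Among the transcription factors, XBP1 had the smallest p. XBP1 is the target of IRE1 and drives genes of ER folding, secretion and degradation. HiGI tumors held 8006, 6777 and 6955 XBP1 reads, and LoGI tumors held 8639, 8567 and 8525. Every LoGI tumor had more XBP1 reads than every HiGI tumor even before normalization. XBP1 averaged 7175 ± 367 (SD, n = 3) in HiGI and 8688 ± 575 (SD, n = 3) in LoGI tumors, and the lowest LoGI tumor lay 8.41% above the highest HiGI tumor. This was a log2 fold change of 0.28 (SE 0.0923, DESeq2) with an edgeR adjusted p of 0.0855. With the DESeq2 Wald test the adjusted p was 0.0473, and across all settings tried it ran from 0.0473 to 0.367.

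ATF4, the factor shared by the PERK and amino acid branches, was counted 14120, 13986 and 13308 times in HiGI tumors and 13931, 16192 and 15824 times in LoGI tumors. The raw reads overlapped, since LoGI tumor 19 had fewer than HiGI tumors 16 and 20, but the normalized counts did not. These were 13700 ± 618 (SD, n = 3) in HiGI and 15480 ± 1041 (SD, n = 3) in LoGI tumors. The ATF4 log2 fold change came to 0.18 (SE 0.0915, DESeq2), and its edgeR adjusted p was 0.367.

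DDIT3 encodes CHOP, a factor induced by ATF4 and tied to cell death under prolonged ER stress. Its reads numbered 629, 675 and 584 under the HiGI diet and 655, 738 and 754 under the LoGI diet. After normalization, DDIT3 stood at 624 ± 46.8 (SD, n = 3) in HiGI and 724 ± 59.6 (SD, n = 3) in LoGI tumors, with a gap of only 2.27% between the nearest tumors of the 2 diets. Its log2 fold change of 0.21 had an edgeR adjusted p of 0.416. DDIT3 and ATF4 were the pair of the 10 genes with the most alike profiles. The root mean square difference of their log2 CPM, each centred on its mean over the 6 tumors, was 0.0503, and XBP1 and DNAJB9 came next at 0.0648. Neither distance was ranked against those to all genes. For HSPA5, a distance of 0.0772 to ATF4 was only rank 1245 among 15457 genes.

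Of the 3 genes of ER folding and disposal, HSPA5 and HERPUD1 overlapped between diets and DNAJB9 did not. HSPA5 encodes BiP, the main chaperone of the ER lumen and the usual marker of the unfolded protein response. HSPA5 took 24107, 23867 and 23385 reads under HiGI and 22920, 25736 and 23683 under LoGI. LoGI tumor 19 had the fewest and LoGI tumor 27 the most. Normalized counts stood at 23622 ± 1357 (SD, n = 3) in HiGI and 24361 ± 470 (SD, n = 3) in LoGI tumors. The change of HSPA5 was 0.0445 on the log2 scale (edgeR adjusted p = 0.894), and its 95% interval in DESeq2 ran from -0.12 to 0.22.

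DNAJB9, an ER co-chaperone of BiP and a known target of spliced XBP1, was read 1361, 1168 and 1059 times under HiGI and 1483, 1410 and 1357 times under LoGI. HiGI tumor 16 had slightly more reads than LoGI tumor 28, and after normalization no tumors overlapped. DNAJB9 averaged 1181 ± 64.6 (SD, n = 3) normalized counts under HiGI and 1435 ± 118 (SD, n = 3) under LoGI, and its log2 fold change of 0.28 did not pass the test (SE 0.106, DESeq2; edgeR adjusted p = 0.143).

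HERPUD1, a membrane protein of ER-associated degradation, had 2929, 2506 and 2762 reads under HiGI and 2870, 3077 and 2863 under LoGI. HiGI tumor 26 overlapped the LoGI range after normalization. The means were 2711 ± 222 (SD, n = 3) under HiGI and 2969 ± 74.6 (SD, n = 3) under LoGI, which is 0.13 on the log2 scale with a 95% interval in DESeq2 from -0.0536 to 0.33.

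The genes downstream of ATF4 included all 3 genes that were lower in LoGI tumors by sign. TRIB3, a pseudokinase induced by ATF4 and DDIT3 that feeds back on both and can bind the insulin-signalling kinase AKT, had the smallest p among them. TRIB3 reads were 2999, 2876 and 2809 under HiGI and 2077, 2519 and 2424 under LoGI. Every LoGI tumor had fewer TRIB3 reads than every HiGI tumor, before and after normalization. TRIB3 averaged 2872 ± 115 (SD, n = 3) in HiGI and 2363 ± 184 (SD, n = 3) in LoGI tumors, and the highest LoGI tumor differed from the lowest HiGI tumor by -7.68%. On the log2 scale this was -0.28 (SE 0.0985, DESeq2), with an edgeR adjusted p of 0.0969. That edgeR adjusted p was 0.0317 with libraries scaled by their totals only and 0.0441 without LoGI tumor 28, and it ranged up to 0.452, without LoGI tumor 19. In the first of these fits 4.69% of all genes were called lower in LoGI tumors, and in the second 4.13%.

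CHAC1, an enzyme that breaks down glutathione and is a target of the ATF4 branch, had 182, 169 and 145 reads under HiGI and 129, 166 and 153 under LoGI. The diets overlapped, with HiGI tumor 26 below LoGI tumors 27 and 28 after normalization. CHAC1 averaged 163 ± 7.87 (SD, n = 3) normalized counts in HiGI and 151 ± 13.4 (SD, n = 3) in LoGI tumors. The spread within each diet was close to what counting alone gives at this depth, with coefficients of variation of 4.81% and 8.90% against 7.97% from counting. Its log2 fold change was -0.12, with a 95% interval in DESeq2 from -0.46 to 0.24.

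ASNS, asparagine synthetase and a textbook ATF4 target of the amino acid response, had few reads. There were 54, 56 and 66 under HiGI and 75, 88 and 64 under LoGI. LoGI tumor 28 lay below HiGI tumor 26, so that the diets overlapped. Its level averaged 58.6 ± 10.6 (SD, n = 3) normalized counts under HiGI and 76.2 ± 7.90 (SD, n = 3) under LoGI. The log2 fold change of 0.38 had a wide 95% interval in DESeq2, from -0.13 to 0.90.

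SESN2, a leucine-binding inhibitor of mTORC1 that ATF4 and p53 induce, had the fewest reads, with 33, 26 and 28 under HiGI and 16, 26 and 24 under LoGI. After normalization the nearest tumors of the 2 diets differed by -2.57%, and HiGI tumor 20 and LoGI tumor 27 had the same 26 reads. SESN2 averaged 28.7 ± 2.44 (SD, n = 3) in HiGI and 22.1 ± 4.64 (SD, n = 3) in LoGI tumors, where counting alone gives a coefficient of variation of 19.8%. Its log2 fold change was -0.37 and its 95% interval in DESeq2 ran from -1.16 to 0.42.

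**Figure D2:**
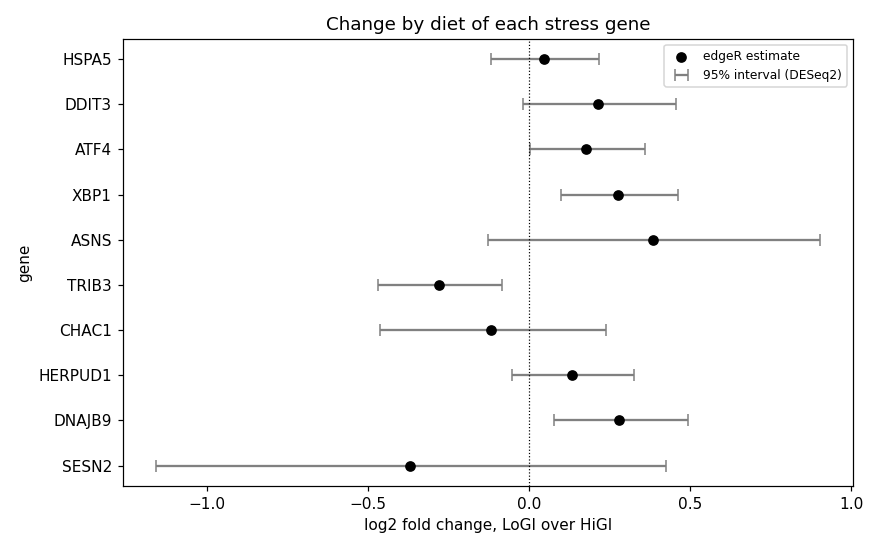
Log2 fold change (LoGI over HiGI) of each gene, as estimated by edgeR (points), with the 95% interval from DESeq2 (bars). The intervals of ATF4, XBP1 and DNAJB9 lie above 0 and that of TRIB3 below it before any adjustment for the number of genes tested, and SESN2 and ASNS have the widest intervals.

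The share of genes called and the size of the smallest change called differed with the number of reads. Among the 6121 genes with a mean of 10 to 100 reads, the group of ASNS and SESN2, edgeR called 503 (8.22%) and the smallest log2 fold change called was 0.75 in size. Of the 6949 genes with a mean of 100 to 1000 reads, which include DDIT3 and CHAC1, 397 (5.71%) were called and the smallest change was 0.38 in size. In the group from 1000 to 10000 mean reads, which holds XBP1, TRIB3, HERPUD1 and DNAJB9, 107 of 4349 genes (2.46%) were called and the smallest change was 0.30 in size. The changes of XBP1, DNAJB9 and TRIB3 were just under that size. For HSPA5 and ATF4, in the group above 10000 mean reads, 5 of 205 genes (2.44%) were called and the smallest was 0.35 in size. Each of the 10 genes changed by less than the smallest change called in its group. That smallest change is an observed minimum and not a cutoff, since the test also weighs the spread of each gene.

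TRIB3 had fewer reads for each ATF4 read in LoGI than in HiGI tumors. Reads of each gene per 100 ATF4 reads of the same tumor do not depend on how libraries are scaled. TRIB3 had 21.2, 20.6 and 21.1 reads per 100 ATF4 reads in HiGI tumors 16, 20 and 26, and 14.9, 15.6 and 15.3 in LoGI tumors 19, 27 and 28. This ratio was tight within each diet, with coefficients of variation of 1.71% and 2.15%, and its mean was lower in LoGI tumors, with a difference of -27.2%. For CHAC1 the ratio was 1.29, 1.21 and 1.09 in HiGI and 0.926, 1.03 and 0.967 in LoGI tumors. For SESN2 it was 0.210 ± 0.0239 (SD, n = 3) and 0.142 ± 0.0242 (SD, n = 3), from 16 to 33 reads per tumor. HSPA5 had 172 ± 2.91 (SD, n = 3) reads per 100 ATF4 reads in HiGI and 158 ± 7.51 (SD, n = 3) in LoGI tumors. ATF4 itself was higher in LoGI tumors, which lowers the ratio of every gene to it. This includes HSPA5, whose own mean normalized count was not lower, at 23622 in HiGI and 24361 in LoGI tumors. For TRIB3 itself the change in edgeR was -17.7%, smaller in size than that of its ratio.

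The ratios of TRIB3, CHAC1, SESN2 and HSPA5, 4 of the 9 genes set against ATF4, were lower in LoGI tumors with no overlap between diets. Of all genes, 23.1% had such a ratio. For TRIB3 and SESN2 this outcome and its permutation p were already fixed and add no support. Their normalized counts were lower without overlap, and those of ATF4 were higher without overlap. None of the 9 was higher without overlap, where 1.78% of all genes were. Each of the 4 had p = 0.1 in an exact two-sided permutation test, the smallest that 3 tumors against 3 allow, and an adjusted p of 0.225 over the 9 ratios. The other 5 genes (DDIT3, XBP1, ASNS, HERPUD1 and DNAJB9) overlapped between diets, with exact permutation p from 0.2 to 0.8. DDIT3 in particular had 4.56 ± 0.236 (SD, n = 3) reads per 100 ATF4 reads in HiGI and 4.67 ± 0.106 (SD, n = 3) in LoGI tumors.

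**Figure D3:**
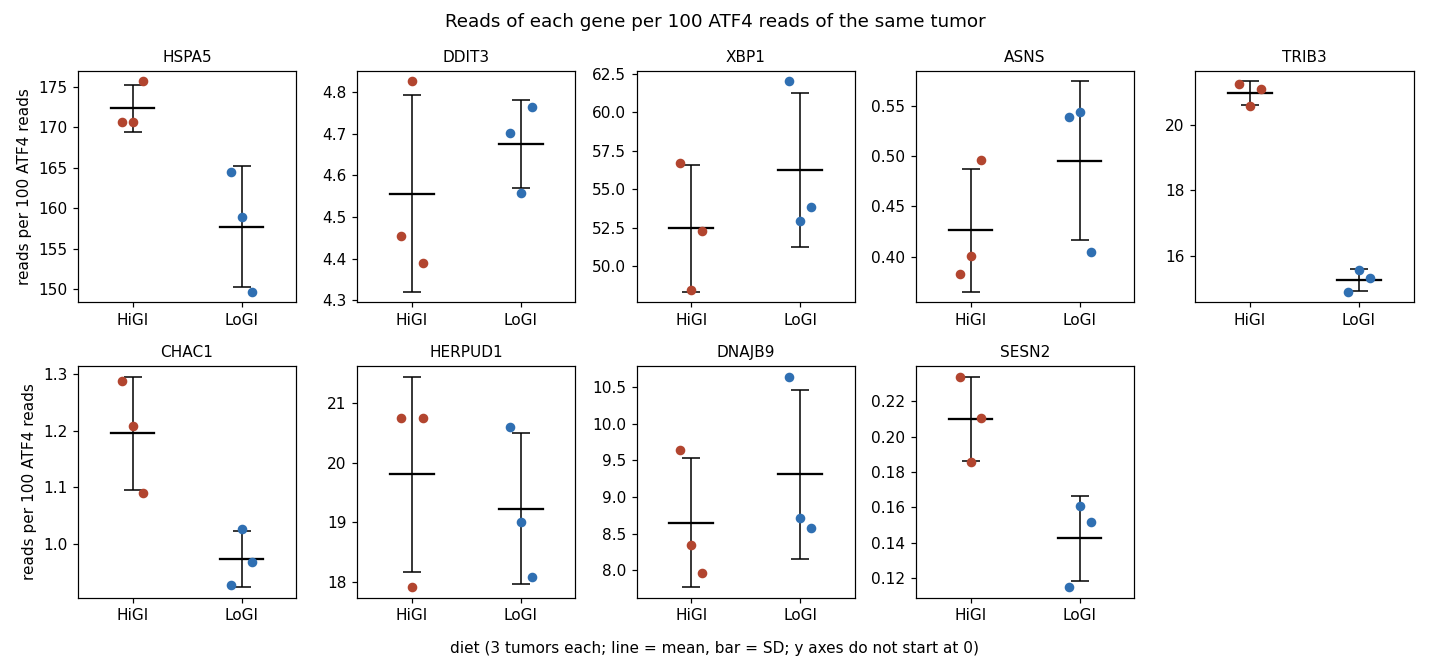
Reads of 9 genes per 100 ATF4 reads of the same tumor (y axes not starting at 0) in HiGI (red) and LoGI (blue) tumors, with the mean as a line and the SD as a bar. The ratio of TRIB3 lies between 20.6 and 21.2 in HiGI tumors and between 14.9 and 15.6 in LoGI tumors. The ratios of HSPA5, CHAC1 and SESN2 are also lower in all LoGI tumors, where ATF4 itself is higher.

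TRIB3 was then set against every other gene, a choice made after its values were seen. The ratios to ATF4 were not among the planned tests either. Per TRIB3 read, 8 of the 9 other genes were higher in LoGI tumors with no overlap between diets, where 30.2% of all genes were. SESN2, the exception, overlapped, with a mean difference of -6.95% (p = 0.6, exact two-sided permutation test). Among the other 8, the mean difference ran from 11.7% for CHAC1 to 59.8% for ASNS. Each of the 8 had p = 0.1 in the same exact permutation test, the smallest possible. For DDIT3, ATF4, XBP1 and DNAJB9 this was already fixed and adds no support. Their normalized counts were higher without overlap, and those of TRIB3 were lower without overlap. The ratio of ATF4 to TRIB3 is also the inverse of the ratio of TRIB3 to ATF4 given above. TRIB3 itself was lower in LoGI tumors, which raises the ratio of every gene to it. This includes CHAC1, whose own mean was lower in LoGI tumors.

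Profiles over the 6 tumors were compared with those of the 15457 genes that averaged at least 1 CPM (reads scaled by library size). The gene most like HSPA5 was ENSG00000134759.14, with a root mean square difference of centred log2 CPM of 0.0138, and the 5 most alike lay within 0.0195. The nearest stress gene to HSPA5 was ATF4, at 0.0772 and rank 1245. For ASNS the most alike gene was ENSG00000185261.15, at 0.0585, and its nearest stress gene was HERPUD1, at 0.197 and rank 1062. No stress gene was among the 5 closest profiles to either, which is likely for any 9 genes among 15457. For ASNS, counting alone gives a coefficient of variation of 12.2%, which adds to its distances.

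**Figure D4:**
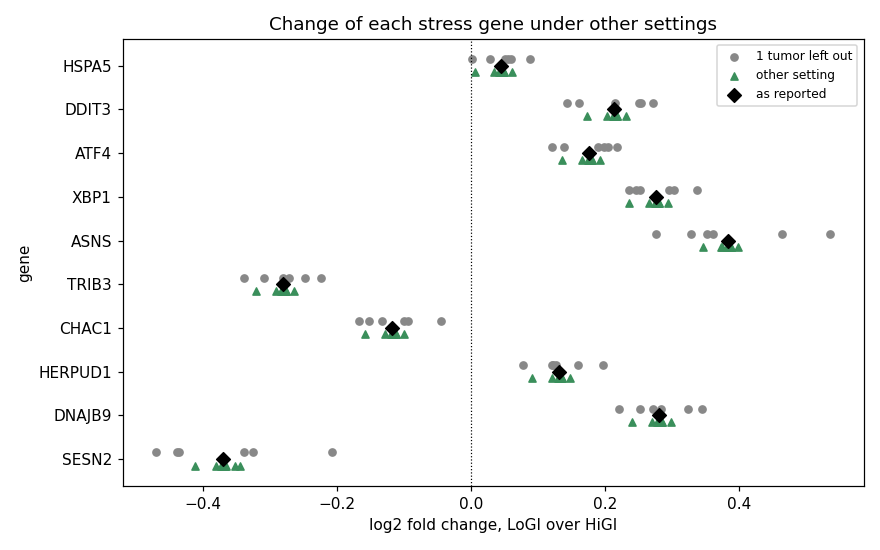
Log2 fold change (LoGI over HiGI) of each gene as reported (diamonds), with 1 tumor left out (circles) and under the other settings (triangles). The sign of every gene is the same in every setting plotted, and HSPA5 comes nearest to 0, at 0.000824.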

How the data were processed

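RNA from 6 LAPC-4 xenograft tumors was sequenced from stranded mRNA libraries. Per the study's methods, BBMap was run against both the human and the mouse genome, reads found in mouse alone were discarded by the authors, who then used STAR and RSEM against human (GRCh38.p13). Versions, and whether counting used strand, are not given in the sources used here. The deposited values are whole-number counts per gene, not normalized, with 0 columns left without a sample. The records name mouse as the organism, and the counts carry human identifiers. Diets came from the sample records.

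Genes reaching a summed total of 10 reads were normalized by TMM and tested with edgeR 4.0.16 (glmQLFit, glmQLFTest) in R 4.3.3, with Benjamini-Hochberg adjustment over all genes at 0.05. Standard errors and 95% intervals (not adjusted) came from DESeq2 1.42.0. Whether the tumors differ technically as well as by animal is not separable. The edgeR and DESeq2 p-values set the difference between diets against the spread among tumors of a diet, which holds both.

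The 10 genes, the wider lists and the tests were chosen with earlier results of these data known. All 10 genes were named, and genes with profiles like HSPA5 and ASNS were taken by smallest root mean square difference. The wider lists (unfolded protein response sensors, ER chaperones, ER-associated degradation, eIF2 kinases, stress factors, amino acid synthesis, transporters, tRNA synthetases), the cell type markers and promoter motifs were set by symbol or human sequence. The table does not pair identifiers with symbols and the reference used here was mouse, so they were not analysed, and no sequences or positions are given. HSPA5, ATF4 and XBP1 have pseudogene copies, and how their reads were divided was not tested. Intervals do not cover reads copied by PCR.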

Additional observations from a re-analysis of the deposited data

How the results depend on the processing

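The 9 settings other than leaving out a tumor were DESeq2 size factors, upper-quartile normalization, library totals only, the DESeq2 Wald test, the edgeR exact test, a filter of 1 read, filterByExpr, at least 10 reads in every tumor and a prior count of 2. Each of the 10 genes kept its sign in these and in the 6 fits that each left out 1 tumor. The number of stress genes called higher in LoGI tumors went from 0 to 1 with the DESeq2 Wald test (XBP1, log2 fold change 0.28, adjusted p = 0.0473), and was 0 in every fit that left out a tumor. The number called lower went from 0 to 1 with library totals only (TRIB3, log2 fold change -0.32, adjusted p = 0.0317 in edgeR's quasi-likelihood test), a scaling that called 4.69% of all genes lower and moved the median log2 fold change of all genes to -0.0368, and lay between 0 and 1 with 1 tumor left out. TRIB3 ranged from -0.34 to -0.22 and XBP1 from 0.24 to 0.34 in those fits. The cause was not tested. A rule added after the data were seen also required a log2 fold change of 0.5 in the main fit. It could not change either count, since both were already 0 there. The 4 genes higher and 2 genes lower without overlap between diets were 4 and 2 under each of the 3 other scalings. Of the genes not called, HSPA5 ranged from 0.000824 to 0.0874 with 1 tumor left out, HERPUD1 from 0.0766 (without HiGI tumor 20) to 0.20 (without HiGI tumor 26), CHAC1 from -0.17 to -0.0452 and SESN2 from -0.47 to -0.21. The alternatives for the wider lists were not run, since those lists were not analysed. The labels do not link tumors across diets, and no paired fit was made. The number of tumors and, for ASNS and SESN2, the number of reads limit the precision.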
